A study of Danio rerio with 5 samples.

Results

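The genes of oxidative phosphorylation were examined in zebrafish neuroblastomas, as the subunit genes of the 5 respiratory complexes that the nucleus encodes and those that the mitochondrial genome encodes. Members were chosen by symbol alone. The rule took symbols beginning with ndufa, ndufb, ndufc, ndufs, ndufv, sdha to sdhd, uqcr, cox4 to cox8 or atp5, the gene cyc1 and every gene with the prefix mt-, and the assembly factors that begin with ndufaf or sdhaf were left out. This gave 102 members among the 30647 genes listed, of which 89 are nuclear and 13 carry the prefix mt-. The nuclear members fall into complex I (40 genes), complex II (5 genes), complex III (9 genes), complex IV (18 genes) and complex V (17 genes).

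RNA-Seq was performed on EGFP+ cells sorted from tumors of fish on which the dβh promoter, active in the sympathetic lineage, drives both MYCN and EGFP. Both groups carry these transgenes. The TATA/TATA group (2 libraries) is homozygous for a TALEN-made knock-in that replaces the G of a GATA site in the first intron of lmo1 with a T. The knock-in also changes 2 bases 5' of that site, from TT to CC. The lmo1-/- group (3 libraries) is homozygous for a CRISPR-Cas9 deletion in exon 2 of lmo1, kept as a single knockout line. The labels do not state the age of the fish or whether each library came from a separate fish, so p values measure the spread between these libraries, which may in part be technical. Wild-type GATA/GATA tumors are not analysed here, and every difference is therefore between 2 mutant genotypes.

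The number of reads assigned to genes ranged from 48144549 to 55782865 per library. The deletion in lmo1 is too small to be seen in a count per gene, and lmo1 itself was at 15.0 and 14.3 normalized RPKM in the TATA/TATA libraries and at 37.9, 36.5 and 57.1 normalized RPKM in the lmo1-/- libraries, so its level does not check the labels. RPKM relates the reads of a gene to its exon length and to the size of the library, and normalized RPKM here uses library sizes corrected with edgeR's TMM method. Cytosolic ribosomal protein genes took 21.5% and 21.9% of the counts in the TATA/TATA libraries, against 38.4%, 42.8% and 34.8% in the lmo1-/- libraries. Among marker genes, 19 of 20 macrophage genes were higher in TATA/TATA tumors, where 19.9% of all tested genes were. The summed levels of the 20 were 3508 and 3740 normalized RPKM in the TATA/TATA libraries and 240.0, 220.4 and 301.3 in the lmo1-/- libraries. Of the 20, 1 (tyrobp) was at 0 in 1 lmo1-/- library. Of 15 sympathoadrenal genes, 5 were lower in TATA/TATA tumors and 1 was higher, beside 16.7% and 19.9% of all tested genes. The log2 fold changes of the 15, TATA/TATA over lmo1-/-, ranged from -2.12 to 1.63 with a median of -0.41. Among the 5 were dbh and th, which define the lineage. Others did not pass, such as chga (log2 fold change -0.22, edgeR adjusted p = 0.73). The gene dbh was at 463 and 415 normalized RPKM in the TATA/TATA libraries and at 839, 893 and 937 in the lmo1-/- libraries (log2 fold change of TATA/TATA over lmo1-/- -1.02, edgeR adjusted p = 0.0047). The gene th was at 515 and 512 normalized RPKM in the TATA/TATA libraries and at 926, 949 and 1203 in the lmo1-/- libraries (log2 fold change -0.999, edgeR adjusted p = 0.0087). In bulk samples such as these, fewer cells of a type and less RNA per cell cannot be told apart.

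Oxidative phosphorylation makes most of the ATP of a resting cell. Complexes I and II pass electrons from NADH and succinate to ubiquinone, complex III passes them on to cytochrome c and complex IV to oxygen, while I, III and IV pump protons that drive ATP synthesis by complex V. Complex II is built from nuclear genes alone, whereas the other complexes each join nuclear subunits to a few core subunits made from mitochondrial DNA, so that their assembly depends on transcripts from both genomes. In tumors the balance between this pathway and glycolysis differs between tissues and cell states.

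The 13 members encoded by mitochondrial DNA could not be compared with the nuclear members. These are mt-nd1, mt-nd2, mt-nd3, mt-nd4, mt-nd4l, mt-nd5 and mt-nd6 of complex I, mt-cyb of complex III, mt-co1, mt-co2 and mt-co3 of complex IV, and mt-atp6 and mt-atp8 of complex V, with listed exon lengths of 164 to 1820 bp. All 13 were listed at a count of 0 in all 5 libraries. Transcripts of mitochondrial DNA are used by every respiring cell, so an exact 0 in each of these genes cannot be read as a level, and no fold change or ratio of mt- to nuclear genes was formed. Zeros were not rare in the files, as 5188 genes (16.9%) were at 0 in every library, but among the 89 nuclear members ndufa4l2b was the only such gene. Reads assigned to genes made up 70.9% and 71.0% of the total behind the authors' RPKM in the TATA/TATA libraries and 76.6%, 75.0% and 76.3% in the lmo1-/- libraries, and whether the remaining reads hold mitochondrial transcripts was not tested.

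The nuclear members were among the most abundant transcripts of the tumors and for the most part were at similar levels in the 2 genotypes. Of the 89, 84 reached 1 RPKM in at least 2 libraries and were tested, and their median rank lay at the 96.1 percentile of mean level among the 13484 genes tested. With edgeR's quasi-likelihood test and Benjamini-Hochberg adjustment over all of these genes, 7 members were higher and 10 were lower in TATA/TATA tumors and 67 did not pass the threshold of 0.05. That is 8.33% higher and 11.9% lower, against 19.9% higher, 16.7% lower and 36.6% in either direction over all tested genes. The log2 fold change, TATA/TATA over lmo1-/- throughout, had a median of -0.02 over the members and of -0.05 over all tested genes. It stayed within 0.5 of 0 for 64 of the 84 members (76.2%), compared with 47.6% of all tested genes. Most of the tested genes were at lower levels than the members. In a fit of the 6173 genes with a mean of at least 5 RPKM, 14.1% were higher and 15.6% lower, or 29.6% in either direction. That fit tested 82 members and kept 15 of the 17 calls, with 0 gained. No share within 0.5 of 0 was formed for genes at the level of the members. In 17 members both TATA/TATA libraries were above all lmo1-/- libraries and in 16 they were below them, where the shares of all tested genes were 32.3% and 33%.

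The split between higher and lower members depended on the scaling and on single libraries. With the library totals behind the authors' RPKM in place of TMM, 21 members were higher and 3 were lower, beside 29.7% and 6.44% of all tested genes, and the median log2 fold change was 0.44 for the members and 0.41 for all tested genes, so that the 2 medians were again close. By complex, the median with the authors' totals was 0.39, 0.65, 0.61, 0.59 and 0.19 for complexes I to V, and complex V remained the one with the lowest median. Of all genes called, 54.3% were higher with TMM and 82.2% with the authors' totals. Leaving out TATA/TATA 1 left 2 members higher (11.1% of all genes) and 0 lower (3.4%), with 7 lower at an unadjusted p under 0.05, and leaving out TATA/TATA 2 left 1 higher (10.4%) and 0 lower (3.31%), with 8 lower at an unadjusted p under 0.05. In these 2 fits the single TATA/TATA library is assumed to vary as the lmo1-/- libraries do. Leaving out lmo1-/- 1 raised the lower members to 22, beside 7 higher, where 23% and 24.9% of all genes were called. All 17 called members kept the sign of their log2 fold change in every setting in which they were tested, and 10 of them passed the threshold with the authors' totals as well.

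**Figure D1:**
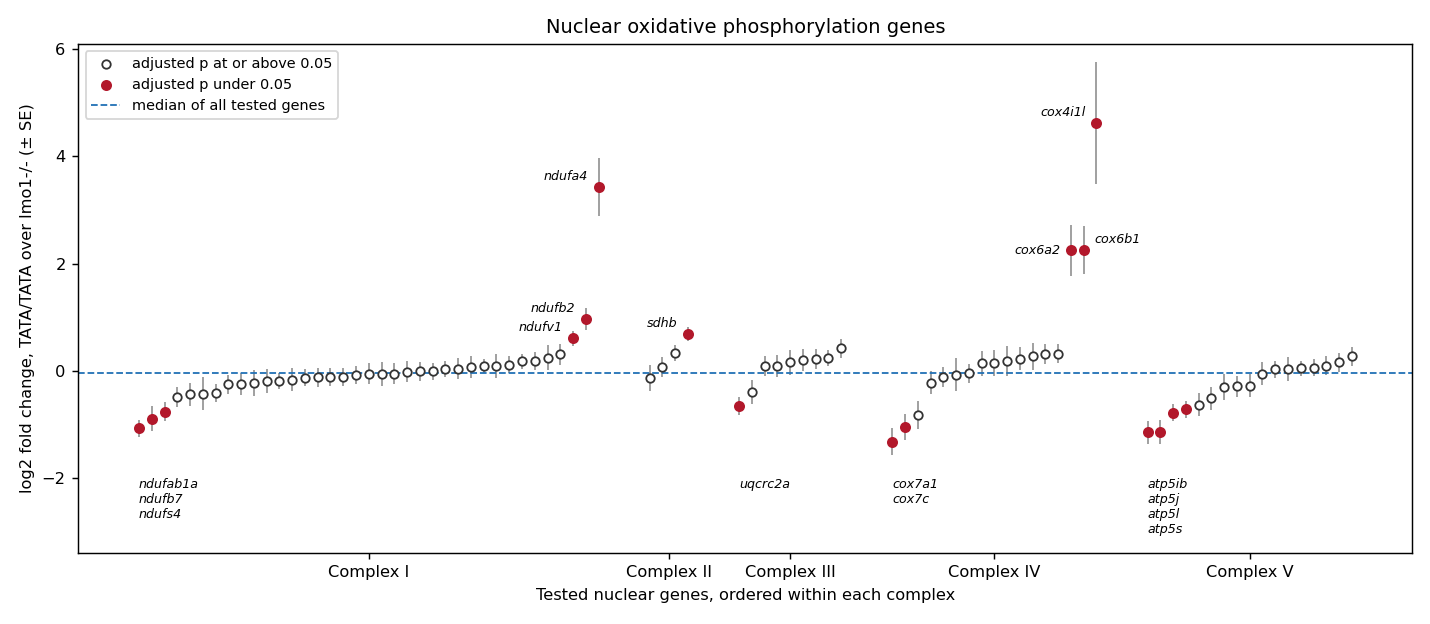
Fitted log2 fold change (TATA/TATA over lmo1-/-, y axis) with its standard error for the 84 tested nuclear genes, ordered within each complex on the x axis. Filled points passed an adjusted p of 0.05 and are named, the names under the points being the lower genes in order from the left, and most of the other points lie near the dashed median of all tested genes at -0.05.

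The largest log2 fold changes among the members were in 4 genes that were higher in TATA/TATA tumors, and 3 of them belong to complex IV, cytochrome c oxidase. The first was cox4i1l, a paralog of the regulatory subunit gene cox4i1. It was at 82.6 and 85.6 normalized RPKM in the TATA/TATA libraries, against 0.321, 1.40 and 8.39 normalized RPKM in the lmo1-/- libraries. Every TATA/TATA value was far above every lmo1-/- value, and the lmo1-/- libraries differed widely among themselves. The log2 fold change was 4.62 (SE 1.14, edgeR adjusted p = 0.024), and it missed the threshold without lmo1-/- 2 (adjusted p = 0.086). The lmo1-/- libraries alone did not meet the filter for cox4i1l, so this gene reached the level tested only through the TATA/TATA libraries.

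The gene of the small subunit COX6B1, cox6b1, was the most abundant of these genes. Its level was 168 and 178 normalized RPKM in the TATA/TATA libraries and 16.1, 42.3 and 50.5 normalized RPKM in the lmo1-/- libraries. The groups did not overlap, and the log2 fold change was 2.25 (SE 0.45, edgeR adjusted p = 0.011). A gene for another small subunit, cox6a2, whose mammalian counterpart is the heart and skeletal muscle isoform, was at 8.76 and 6.76 normalized RPKM in the TATA/TATA libraries and at 1.01, 1.18 and 2.67 normalized RPKM in the lmo1-/- libraries. It had the same log2 fold change of 2.25 (SE 0.48, edgeR adjusted p = 0.014). Like cox4i1l, cox6a2 reached the level tested only through the TATA/TATA libraries. With a filter on a mean of at least 5 RPKM, cox6a2 was not tested. The summed level of 11 muscle markers was lower in both TATA/TATA libraries, at 3.25 and 3.68 normalized RPKM, than in the lmo1-/- libraries, at 5.14, 6.91 and 8.66 normalized RPKM. Only 2 of the 11 reached the level tested, and the part of muscle cells in the level of cox6a2 was not tested.

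The fourth was ndufa4, listed by its symbol with complex I although the mammalian protein was later assigned to cytochrome c oxidase. It was at 4.40 and 4.89 normalized RPKM in the TATA/TATA libraries and at 0.183, 0.387 and 0.705 normalized RPKM in the lmo1-/- libraries. Its log2 fold change was 3.43 (SE 0.53, edgeR adjusted p = 0.0048), and 3.51 and 3.36 without TATA/TATA 1 and without TATA/TATA 2. Every lmo1-/- value of ndufa4 was under 1 RPKM, so it reached the level tested only through the TATA/TATA libraries. With a filter on a mean of at least 5 RPKM it was not tested. All 4 genes were lowest in lmo1-/- 1 and highest, among the lmo1-/- libraries, in lmo1-/- 3. The macrophage markers were higher in the same 2 TATA/TATA libraries, and their part in the levels of these genes was not tested.

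**Figure D2:**
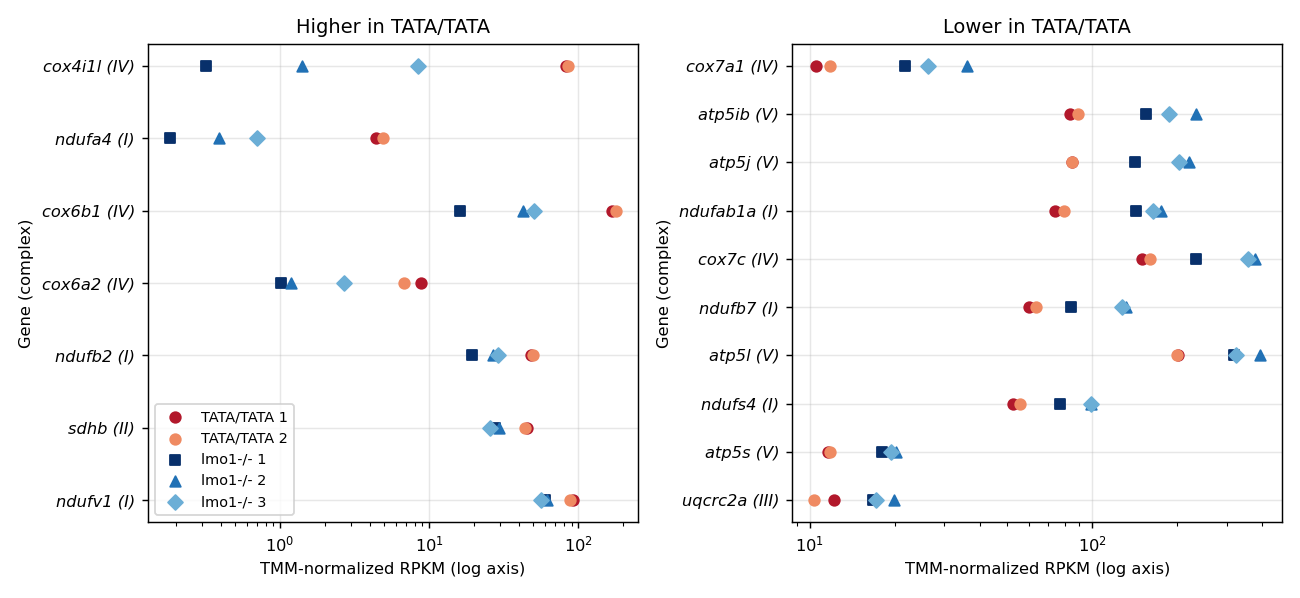
TMM-normalized RPKM (log axis) of the 17 members that passed the threshold, with 1 point per library and the complex of each gene in parentheses. The TATA/TATA points lie close together, and the lmo1-/- points are the more widely spread ones, most of all for cox4i1l between 0.321 and 8.39.

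The other members of complex IV included abundant subunits with little difference and 2 lower genes. The most abundant were cox5aa, cox4i1 and cox6c, which encode widely expressed subunits. Their mean levels were 486 ± 10.7, 411 ± 13.5 and 468 ± 8.21 normalized RPKM in TATA/TATA tumors (SD, n = 2) and 568 ± 120, 445 ± 75.3 and 400 ± 88.0 normalized RPKM in lmo1-/- tumors (SD, n = 3). Their log2 fold changes were -0.22, -0.11 and 0.23, with edgeR adjusted p values of 0.45, 0.68 and 0.45, so each difference was smaller than the spread among the lmo1-/- libraries. Of the complex, 17 of 18 genes were tested, 3 were higher and 2 were lower, and the median log2 fold change was 0.14. That is 17.6% higher and 11.8% lower, beside 19.9% and 16.7% of all tested genes.

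The lower genes of complex IV were cox7a1 and cox7c. In mammals cox7a1 encodes the heart and muscle isoform of subunit VIIa. Here it was at 10.5 and 11.8 normalized RPKM in the TATA/TATA libraries and at 21.7, 36 and 26.2 normalized RPKM in the lmo1-/- libraries. The libraries did not overlap, and the log2 fold change was -1.32 (SE 0.26, edgeR adjusted p = 0.011). The summed level of the muscle markers given above was also lower in both TATA/TATA libraries. The part of muscle cells in the level of cox7a1 was not tested. The gene cox7c, which encodes a small structural subunit, was at 151 and 160 normalized RPKM in the TATA/TATA libraries and at 233, 376 and 355 normalized RPKM in the lmo1-/- libraries. Its log2 fold change was -1.05 (SE 0.24, edgeR adjusted p = 0.019), and it missed the threshold without lmo1-/- 2 (adjusted p = 0.0505). The 12 complex IV genes that did not pass had log2 fold changes between -0.83 and 0.32, and the lowest of them was cox6b2 (adjusted p = 0.053), the paralog of cox6b1.

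In complex I, the NADH dehydrogenase, 37 of 40 genes were tested, and 3 were higher and 3 lower in TATA/TATA tumors, with a median log2 fold change of -0.06. That is 8.11% in each direction, beside 19.9% higher and 16.7% lower over all tested genes. Besides ndufa4, the higher genes were ndufb2 and ndufv1. The accessory subunit gene ndufb2 was at 47.9 and 49.3 normalized RPKM in the TATA/TATA libraries, against 19.4, 26.7 and 28.9 normalized RPKM in the lmo1-/- libraries. Every TATA/TATA library was well above the lmo1-/- libraries, with a log2 fold change of 0.96 (SE 0.21, edgeR adjusted p = 0.015). The gene ndufv1, which encodes the core subunit that binds NADH and the flavin, was at 91.5 and 88.5 normalized RPKM in the TATA/TATA libraries and at 59.6, 61.3 and 56.4 normalized RPKM in the lmo1-/- libraries. This smaller difference was tight within both genotypes, with a log2 fold change of 0.61 (SE 0.14, edgeR adjusted p = 0.017).

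The lower genes of complex I were ndufab1a, ndufb7 and ndufs4. The gene ndufab1a encodes a mitochondrial acyl carrier protein, which also serves fatty acid synthesis in the organelle. Its level was 73.8 and 79.3 normalized RPKM in the TATA/TATA libraries and 143, 175 and 165 normalized RPKM in the lmo1-/- libraries. The groups were well apart, and the log2 fold change was -1.07 (SE 0.16, edgeR adjusted p = 0.0040). The accessory subunit gene ndufb7 was at 59.6 and 63.5 normalized RPKM in the TATA/TATA libraries and at 84.1, 132 and 128 normalized RPKM in the lmo1-/- libraries, with a log2 fold change of -0.90 (SE 0.23, edgeR adjusted p = 0.028). It did not pass the threshold without lmo1-/- 2 or without lmo1-/- 3 (adjusted p = 0.072 in each case).

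The gene ndufs4 encodes an accessory subunit whose loss in humans causes a mitochondrial encephalopathy. It was at 52.3 and 55.4 normalized RPKM in the TATA/TATA libraries and at 76.8, 99.4 and 99.1 normalized RPKM in the lmo1-/- libraries. Its log2 fold change was -0.77 (SE 0.18, edgeR adjusted p = 0.019), and the adjusted p was 0.050, just past the threshold, without lmo1-/- 3. The most abundant members listed with complex I by symbol, ndufa4l, ndufb9 and ndufa5, did not pass, with log2 fold changes of -0.44, -0.25 and -0.17. Of these, ndufa4l is the paralog of ndufa4 and was likewise placed in complex I by its symbol alone. Both genes are in the counts, median and share of RPKM given for complex I. In all, 31 complex I genes did not pass, with log2 fold changes between -0.50 and 0.30.

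Complex II, succinate dehydrogenase, is the only one of these enzymes that also belongs to the citric acid cycle. It had 1 higher gene among 4 tested, where 19.9% of all tested genes were higher. The iron-sulfur subunit gene sdhb was at 45.1 and 43.7 normalized RPKM in the TATA/TATA libraries and at 27.6, 29.6 and 25.6 normalized RPKM in the lmo1-/- libraries. The 2 genotypes were clearly apart, with a log2 fold change of 0.69 (SE 0.14, edgeR adjusted p = 0.012). The flavoprotein subunit gene sdha did not overlap between genotypes either, at 120 and 113 normalized RPKM in the TATA/TATA libraries and 93.4, 85.8 and 100.0 in the lmo1-/- libraries, but its log2 fold change of 0.32 did not pass (adjusted p = 0.14). The membrane anchor genes sdhc and sdhdb had log2 fold changes of -0.13 and 0.08 (adjusted p = 0.71 and 0.79) and overlapped. The remaining anchor gene, sdhda, was under the level tested, between 0.025 and 0.461 normalized RPKM.

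In complex III, which passes electrons to cytochrome c, 1 of 9 genes differed (11.1%, beside 36.6% of all tested genes in either direction). The gene uqcrc2a, for a core protein that faces the matrix, was at 12.2 and 10.4 normalized RPKM in the TATA/TATA libraries and at 16.7, 19.9 and 17.1 normalized RPKM in the lmo1-/- libraries, with a log2 fold change of -0.66 (SE 0.16, edgeR adjusted p = 0.024). Its paralog uqcrc2b, at a mean of 63.2 ± 2.59 normalized RPKM in TATA/TATA tumors (SD, n = 2) and 59.4 ± 9.66 in lmo1-/- tumors (SD, n = 3), did not differ beyond the spread (adjusted p = 0.74). The most abundant genes, uqcrh for the hinge protein, uqcr10 and uqcrc1, had log2 fold changes of -0.40, 0.15 and 0.09, and none of them passed. The 8 genes that did not pass lay between -0.40 and 0.42, and the median over the complex was 0.15.

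Complex V, the ATP synthase, had 4 lower genes among 17 (23.5%, beside 16.7% of all tested genes) and a median log2 fold change of -0.28. With TMM no gene of this complex was called higher by edgeR, also at an unadjusted p under 0.05 (0 genes), nor was any by DESeq2 (0 genes). With the authors' totals 5 were higher and 1 lower (29.4% and 5.88%, beside 29.7% and 6.44% of all tested genes). By limma on log2(RPKM + 0.1) of the authors' RPKM, without TMM, 6 were higher and 1 lower. Of all tested genes 31.9% and 6.72% were. The 3 with the largest differences encode small subunits of the membrane sector and the stalk. The subunit e gene atp5ib (atp5meb in RefSeq) was at 83.8 and 88.9 normalized RPKM in the TATA/TATA libraries and at 155, 233 and 188 normalized RPKM in the lmo1-/- libraries. Its log2 fold change was -1.15 (SE 0.21, edgeR adjusted p = 0.0082), and it is the only gene of the complex that was also called lower with the authors' totals.

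The coupling factor gene atp5j (atp5pf in RefSeq) followed closely, at 84.8 and 85.1 normalized RPKM in the TATA/TATA libraries and at 141, 220 and 203 normalized RPKM in the lmo1-/- libraries. Its log2 fold change was -1.15 (SE 0.23, edgeR adjusted p = 0.012). The subunit g gene atp5l was at 201 and 200 normalized RPKM in the TATA/TATA libraries and at 317, 393 and 322 normalized RPKM in the lmo1-/- libraries, with a log2 fold change of -0.78 (SE 0.16, edgeR adjusted p = 0.014). The fourth lower gene was atp5s (dmac2l in RefSeq), named here after its values were seen, with a log2 fold change of -0.72 (SE 0.16, edgeR adjusted p = 0.016). Its RefSeq symbol does not begin with atp5, so it is counted among the lower genes of complex V by the symbol in use here alone. For each of the 4, both TATA/TATA libraries were below all lmo1-/- libraries.

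The genes of the catalytic core of complex V did not pass the threshold with TMM. The genes of the catalytic subunits, atp5b (atp5f1b in RefSeq) and atp5a1 (atp5fa1 in RefSeq), were the most abundant members of complex V together with the subunit c gene atp5g3b. The beta subunit gene atp5b was at 547 and 537 normalized RPKM in the TATA/TATA libraries and at 582, 549 and 467 in the lmo1-/- libraries, with a log2 fold change of 0.02 (adjusted p = 0.92). The alpha subunit gene atp5a1 was at 467 and 471 normalized RPKM in the TATA/TATA libraries and at 500, 396 and 369 in the lmo1-/- libraries, with a log2 fold change of 0.15 (adjusted p = 0.56). The TATA/TATA values lay within the range of the lmo1-/- values for atp5a1 and atp5b alike. With the authors' totals both were called higher, with log2 fold changes of 0.61 for atp5a1 (edgeR adjusted p = 0.035) and 0.49 for atp5b (edgeR adjusted p = 0.031). The rotor ring gene atp5g3b was lower without overlap, at 527 and 553 normalized RPKM in the TATA/TATA libraries and at 625, 956 and 737 in the lmo1-/- libraries, but did not pass (log2 fold change -0.52, adjusted p = 0.12).

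As a share of the summed RPKM of the members, which does not depend on the scaling between libraries, complex I made up 23.1% and 23.3% in the TATA/TATA libraries and 23.7%, 23.3% and 25.0% in the lmo1-/- libraries. Complex V made up 35.2% and 34.9% in the TATA/TATA libraries and 40.1%, 37.6% and 36.9% in the lmo1-/- libraries, and complex IV 32.0% and 32.4% in the TATA/TATA libraries and 27.9%, 30.7% and 29.3% in the lmo1-/- libraries. Complex III made up 7.12% and 6.88% in the TATA/TATA libraries and 6.1%, 6.42% and 6.53% in the lmo1-/- libraries, and complex II 2.59% and 2.53% in the TATA/TATA libraries and 2.19%, 1.98% and 2.24% in the lmo1-/- libraries. The share of complex V was thus lower, and the shares of II, III and IV higher, in both TATA/TATA libraries than in any lmo1-/- library. A design of 2 against 3 libraries cannot give a 2-sided exact permutation p below 0.1, and these 5 comparisons gave 0.3, 0.1, 0.1, 0.2 and 0.2 for complexes I to V by the difference in means, so none passed the threshold.

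The 5 nuclear members under the level tested were ndufa4l2a, ndufa4l2b, ndufs8b, sdhda and cox4i2. They ranged from 0 to 1.23 normalized RPKM over all libraries, and a value of 0 is compatible with as many as 3 counts. For a gene with 1 kb of exon that limit is 0.0427 to 0.0812 normalized RPKM across the libraries, and it covers counting error only. The highest of them was cox4i2, whose mammalian counterpart is an oxygen-sensitive isoform of subunit IV, at 1.23 and 0.725 normalized RPKM in the TATA/TATA libraries and 0.629, 0.451 and 0.562 in the lmo1-/- libraries. In a fit without the filter it had an adjusted p of 0.32.

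Zebrafish kept many subunit genes as pairs, and the ratio of 2 paralogs within a library is also free of the scaling between libraries. Of the 13 pairs with a ratio, 2 of them added after their values were seen, 7 had a higher and 3 a lower ratio in both TATA/TATA libraries than in every lmo1-/- library, and 3 overlapped. By normalized level, 32.3% of all tested genes were higher and 33% lower without overlap, and no such share was formed for ratios. The largest shift was in cox4i1l, which made up 17.1% and 16.9% of the pair with cox4i1 in the TATA/TATA libraries and 0.0871%, 0.268% and 1.84% in the lmo1-/- libraries. The pair thus remained mainly cox4i1 in all 5 libraries. Between cox6b1 and cox6b2 the majority changed, as cox6b1 made up 55.4% and 56.9% of the pair in the TATA/TATA libraries and 8.55%, 12.1% and 17.4% in the lmo1-/- libraries. The log2 ratio of cox6b1 to cox6b2 was higher by 3.2 in TATA/TATA tumors.

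For ndufa4 over ndufa4l (ndufa4b and ndufa4a in RefSeq) the log2 ratio was higher by 4.08 in TATA/TATA tumors, and for cox6a2 over cox6a1 by 2.22, although ndufa4 and cox6a2 stayed below 3% of their pairs in every library. Lower ratios were those of cox7a1 to cox7a2a (log2 difference -1.60), of ndufab1a to ndufab1b (-0.96) and of uqcrc2a to uqcrc2b (-0.76). The gene ndufab1a made up 59.5% and 61.6% of its pair in the TATA/TATA libraries and 75.3%, 73.6% and 75.9% in the lmo1-/- libraries. Of the paralogs that the called genes were set against, cox4i1, cox6a1, cox7a2a and ndufab1b had log2 fold changes of their own of -0.11, 0.14, 0.27 and -0.12, and none passed. The paralogs cox6b2, atp5ia and ndufa4l were lower without overlap, at -0.83, -0.63 and -0.44, but did not pass either (edgeR adjusted p = 0.053, 0.058 and 0.15). The exact permutation p was 0.1 for 8 of the 10 pairs without overlap, the smallest that the design allows, and 0.1625 after adjustment over the 13 pairs, so no pair passed. Of these pairs, cox4i1l over cox4i1 and ndufa4 over ndufa4l were added after their values had been seen. How the counting divided reads between near-identical copies is not known for these pairs, and their levels are uncertain to that extent.

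**Figure D3:**
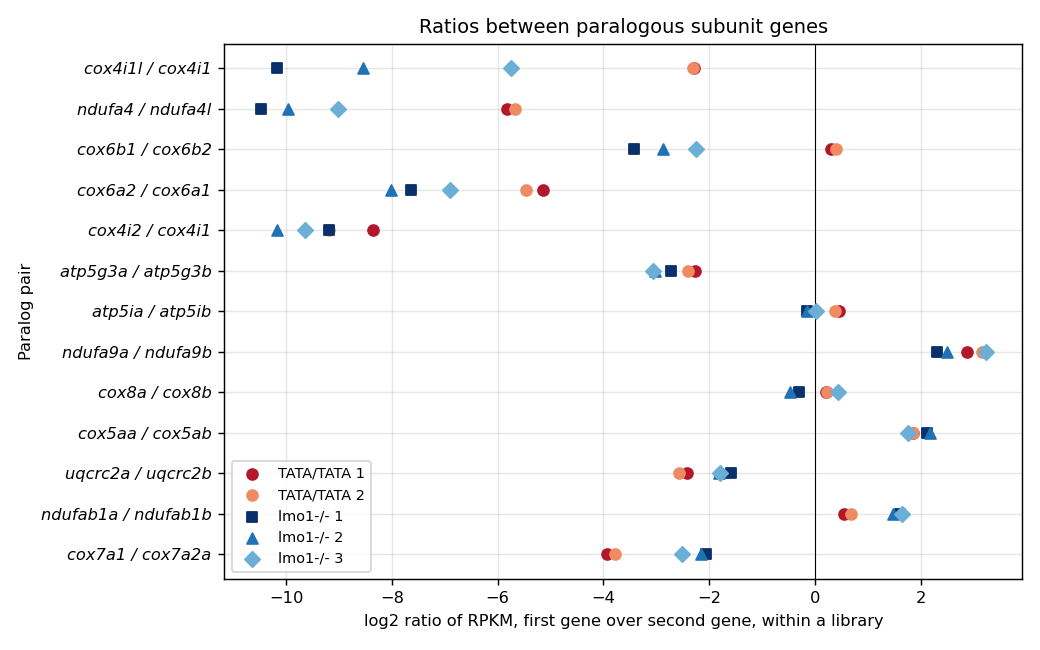
The log2 ratio of RPKM of 2 paralogs (first gene over second gene, x axis) in each library, with 1 row per pair. The TATA/TATA points stand right of all lmo1-/- points for cox4i1l, ndufa4, cox6b1 and cox6a2 over their paralogs and left of them for uqcrc2a, ndufab1a and cox7a1.

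The members varied more among the lmo1-/- libraries than between the TATA/TATA libraries, and so did all tested genes. The coefficient of variation had a median of 2.57% over the 84 members in TATA/TATA tumors and of 17.9% in lmo1-/- tumors, compared with 4.41% and 21.3% over all tested genes. The spread among lmo1-/- libraries followed an order, in that lmo1-/- 1 was the lowest of the 3 in 70 of the 84 members (83.3%) and lmo1-/- 2 the highest in 65 (77.4%), compared with 38.2% and 32.2% of all tested genes. Relative to the lmo1-/- mean, the median member stood at -0.28 in lmo1-/- 1, 0.19 in lmo1-/- 2 and 0.05 in lmo1-/- 3 on the log2 scale. The catalytic subunit genes atp5a1 and atp5b, with ndufb3 and ndufs1, were the 4 exceptions with their highest value in lmo1-/- 1. No pair of libraries agreed within sampling noise, as the squared difference per gene, which is 1 for sampling noise alone, was 9.19 for the TATA/TATA libraries and 113 to 140 for the lmo1-/- pairs, so no library was treated as a second deposit of another.

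**Figure D4:**
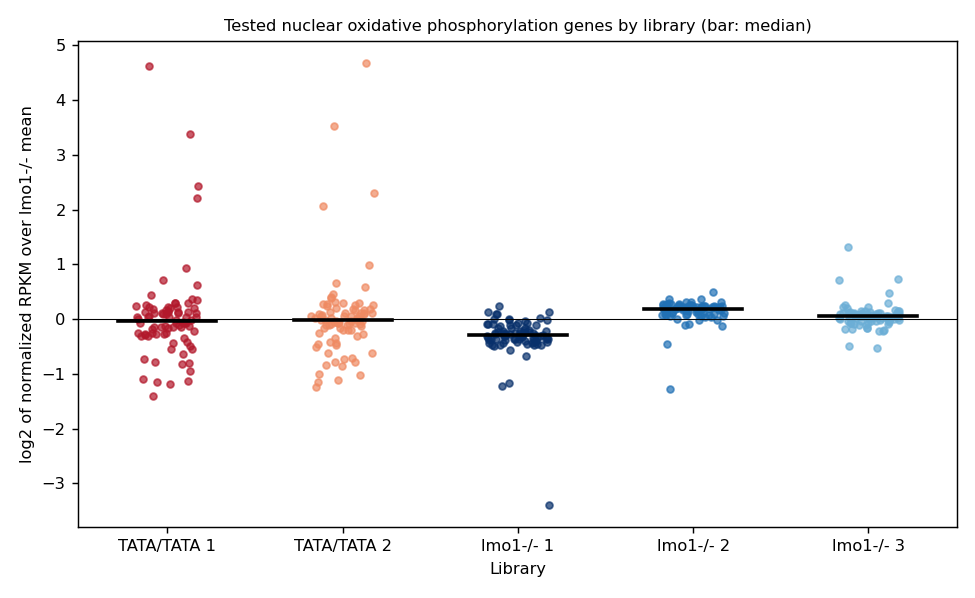
The log2 of normalized RPKM over the lmo1-/- mean (y axis) of each tested nuclear gene in each library, with the median as a bar. The medians of the lmo1-/- libraries are at -0.28, 0.19 and 0.05, and the 4 highest genes of each TATA/TATA library are cox4i1l, ndufa4, cox6b1 and cox6a2.

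As a share of all counts on genes, the nuclear members took 1.58% and 1.54% in the TATA/TATA libraries and 0.954%, 1.13% and 1.25% in the lmo1-/- libraries (exact permutation p = 0.1). With the ribosomal protein genes left out of the total, a choice made after seeing the data, the shares were 2.01% and 1.97% in the TATA/TATA libraries and 1.55%, 1.97% and 1.91% in the lmo1-/- libraries. These values overlapped, with an exact permutation p of 0.5, and most of the gap that remained lay in lmo1-/- 1.

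Among the regulators of mitochondrial gene expression, 2 of 12 were higher, where 19.9% of all tested genes were. The coactivator gene ppargc1a, whose mammalian product PGC-1alpha drives mitochondrial biogenesis, was at 3.33 and 3.18 normalized RPKM in the TATA/TATA libraries and at 0.387, 0.486 and 0.310 normalized RPKM in the lmo1-/- libraries. Its log2 fold change was 3.05 (SE 0.26, edgeR adjusted p = 0.00073). With every lmo1-/- value under 1 RPKM, ppargc1a reached the level tested only through the TATA/TATA libraries. The related coactivator gene ppargc1b was at 7.27 and 6.30 normalized RPKM in the TATA/TATA libraries and at 4.21, 3.72 and 3.76 in the lmo1-/- libraries, with a log2 fold change of 0.80 (SE 0.16, edgeR adjusted p = 0.011). The other 10 of 12 regulators did not pass. These were esrra (log2 fold change 0.50), gabpa (0.21), pprc1 (0.19), nrf1 (0.14), gabpb2b (-0.07), gabpb1 (-0.12), yy1a (-0.17), tfam (-0.27), yy1b (-0.33) and gabpb2a (-0.34). As stated above, the subunit genes as a whole had a median log2 fold change of -0.02 with TMM and of 0.44 with the authors' totals. With these totals ppargc1a was at 3.52 and ppargc1b at 1.25. A relation of the coactivator genes to the subunit genes was not tested.

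With TMM scaling, genes that build the respiratory chain and express the mitochondrial genome were lower where they passed the threshold, whereas with the authors' totals more of them were higher than lower. Over all tested genes 16.7% were lower and 19.9% higher with TMM. The share of lower genes was below that background for assembly factors and mitochondrial ribosomal protein genes. It was above the background for genes of mitochondrial DNA maintenance and expression. Among 47 assembly factors, 5 were lower, led by ndufaf5, ndufaf7 and tmem242, all of complex I or V assembly, with log2 fold changes of -1.22, -1.02 and -0.73 (edgeR adjusted p = 0.0054, 0.0096 and 0.027). None of the 47 was called higher by edgeR, with 4 higher at an unadjusted p under 0.05 and 4 by DESeq2. The limma counts given here come from log2(RPKM + 0.1) of the authors' RPKM, without TMM. By limma 13 of the 47 were higher, where 31.9% of all tested genes were. Among 73 mitochondrial ribosomal protein genes, 7 were lower, led by mrpl41, mrpl16 and mrps31 (log2 fold changes -1.11, -1.04 and -0.88, edgeR adjusted p = 0.0045, 0.010 and 0.014), and 0 were higher by edgeR, by its unadjusted p or by DESeq2, with 13 by limma. Among 30 genes of mitochondrial DNA maintenance and expression, 8 were lower. The largest differences were in trmt10c, a subunit of mitochondrial RNase P, fastkd2 and the initiation factor gene mtif3 (log2 fold changes -1.28, -0.91 and -0.88, edgeR adjusted p = 0.0034, 0.0095 and 0.010). None of these was called higher by edgeR, with 1 at an unadjusted p under 0.05, 2 by DESeq2 and 5 by limma. The medians of the 3 lists were -0.12, -0.16 and -0.24 with TMM and 0.34, 0.32 and 0.22 with the authors' totals. With these totals the counts became 10 higher and 1 lower, 6 higher and 1 lower, and 4 higher and 1 lower. Over all tested genes 29.7% were then higher and 6.44% lower, and each list lay below both shares.

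Among the carriers, the ADP/ATP translocase gene slc25a5 stood out in level. It was at 1357 and 1284 normalized RPKM in the TATA/TATA libraries and at 3322, 3613 and 2735 normalized RPKM in the lmo1-/- libraries, with a log2 fold change of -1.29 (SE 0.19, edgeR adjusted p = 0.0038). The other 6 of the 7 tested carrier genes did not pass. The porin genes vdac1, vdac3 and vdac2 had log2 fold changes of -0.51, -0.46 and -0.38 (adjusted p = 0.054, 0.055 and 0.14), slc25a6 and the phosphate carrier gene slc25a3b were at -0.16 and -0.10, and the cytochrome c gene cycsb was at 0.26 (adjusted p = 0.32). Of the untested carrier genes, ckmt1 was lower and ckmt2b higher without the filter (log2 fold changes -2.02 and 5.02, edgeR adjusted p = 0.028 and 0.025). Of all genes in that fit, 10.4% were lower and 15% higher. In that fit slc25a4 did not pass, and ckmt2a, cycsa and slc25a3a were at 0 in every library. The levels of ckmt2b and ckmt1 were low. The gene ckmt2b had 14 and 30 counts in the TATA/TATA libraries and 1, 0 and 0 in the lmo1-/- libraries. For ckmt1 the levels were 0.187 and 0.272 normalized RPKM in the TATA/TATA libraries and 0.683, 1.37 and 0.695 in the lmo1-/- libraries.

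Among the genes of the citric acid cycle and its supply of acetyl-CoA, the isocitrate dehydrogenase gene idh3a was higher (log2 fold change 0.70, edgeR adjusted p = 0.042) and the pyruvate dehydrogenase gene pdha1a was lower (log2 fold change -0.90, edgeR adjusted p = 0.014). Of 22 mitochondrial import genes, 4 were lower, where 16.7% of all tested genes were, including timm8b and tomm20b (log2 fold changes -1.03 and -0.78, edgeR adjusted p = 0.012 and 0.018), and 1, tomm34, was higher (1.59, edgeR adjusted p = 0.0011). None of the 3 tested uncoupling genes passed with edgeR, also at an unadjusted p under 0.05 (0 genes), or with DESeq2 (0 genes). By limma on the authors' RPKM 1 was higher. The untested gene ucp1 was at 0.724 and 0.976 normalized RPKM in the TATA/TATA libraries and at 0.245, 0.134 and 0.0578 in the lmo1-/- libraries. In a fit without the filter it was higher (log2 fold change 2.51, edgeR adjusted p = 0.020), where 15% of all genes were. The uncoupling protein gene ucp3 was at 23.9 and 24.8 normalized RPKM in the TATA/TATA libraries and at 19.3, 9.21 and 95.9 in the lmo1-/- libraries, so that the lmo1-/- libraries enclosed the TATA/TATA values. The log2 fold change of ucp3 was -0.77 (adjusted p = 0.57), and with the replicate number as a block it was 0.87 and called higher (edgeR adjusted p = 0.0062). Only lmo1-/- has a replicate 3, so the block takes lmo1-/- 3, which held the highest value of ucp3, out of the comparison.

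Of 22 listed genes that respond to hypoxia, 14 were tested, and 2 were higher and 1 was lower, beside 19.9% and 16.7% of all tested genes. In a fit without the filter, adma, ca9 and p4ha1a were higher (log2 fold changes 4.20, 5.81 and 1.80, edgeR adjusted p = 0.0024, 0.0034 and 0.023). Of the 25459 genes in that fit, 15% were higher and 10.4% lower. The gene ca9 had 1, 1 and 0 counts in the lmo1-/- libraries. The TATA/TATA levels of adma, ca9 and p4ha1a were low, between 0.205 and 1.47 normalized RPKM. The rest of the untested genes, igfbp1a, igfbp1b, ndrg1b, pdk3b and vegfaa, did not pass in that fit. The lactate dehydrogenase gene ldha was at 65.7 and 69.1 normalized RPKM in the TATA/TATA libraries and at 15.2, 24.1 and 18.5 in the lmo1-/- libraries, with a log2 fold change of 1.81 (SE 0.22, edgeR adjusted p = 0.0020). The glucose transporter gene slc2a1b was also higher (log2 fold change 2.83, edgeR adjusted p = 0.0028), at 2.84 and 3.42 normalized RPKM in the TATA/TATA libraries and 0.551, 0.493 and 0.277 in the lmo1-/- libraries. As its lmo1-/- values were all under 1 RPKM, slc2a1b reached the level tested only through the TATA/TATA libraries. The mitophagy receptor gene bnip3 was lower (log2 fold change -1.55, edgeR adjusted p = 0.0014), at 4.95 and 5.24 normalized RPKM in the TATA/TATA libraries and 13.4, 15.0 and 16.3 in the lmo1-/- libraries. The macrophage genes given above were higher in the same TATA/TATA libraries as ppargc1a, ldha and slc2a1b, and their part in these differences was not tested. Other cell types had few reads, with summed levels of 33.1 and 36.2 normalized RPKM for 6 erythroid genes in the TATA/TATA libraries and 71.2, 83.0 and 77.7 in the lmo1-/- libraries, of 17.2 and 21.1 for 7 interrenal genes in the TATA/TATA libraries and 91.2, 88.4 and 34.8 in the lmo1-/- libraries, and of 5.01 and 5.37 for 8 fibroblast genes in the TATA/TATA libraries and 2.06, 1.63 and 0.818 in the lmo1-/- libraries.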

How the data were processed

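The authors aligned 100 bp paired-end, strand-specific reads from ribosomal RNA-depleted libraries to danRer10 (GRCz10) with HISAT2 2.1.0, and counted them per gene name of Ensembl release 90 with HTSeq. The files deposited by the authors hold, per gene and library, the raw count, the exon length and the RPKM, which divides by exon length and mapped reads. The instrument is a NextSeq 500 in the labels and a HiSeq in the paper's methods.

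Counts were tested with the quasi-likelihood F-test of edgeR 4.0.16 in R 4.3.3, with TMM normalization, genotype alone as a term, genes of at least 1 RPKM in at least 2 libraries and Benjamini-Hochberg adjustment over all 13484 tested genes (threshold 0.05). Normalized RPKM divides by the TMM-corrected library size and was 1.11 and 1.13 times the authors' RPKM in the TATA/TATA libraries and 1.54, 1.74 and 1.36 times in the lmo1-/- libraries. Shares and paralog ratios were compared by 2-sided exact permutation tests. The alternatives were DESeq2 1.42.0, limma 3.58.1 on the authors' RPKM without TMM, other scalings and filters, a replicate block and each library left out. The fits were also run on simulated counts with the same spread in both genotypes and as many rises as falls. The unequal spread and the shift in composition of these libraries were therefore not covered.

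Members and lists were chosen with earlier results of these data known. Named genes were all mt- genes, and per complex the 3 most abundant and the 3 with the largest called difference in each direction, complex II, paralogs of called genes, low members, regulators, carriers and the 3 with the largest called differences of other lists, except that a gene of the citric acid cycle list is not reported here. Symbols are those of the files, with current RefSeq names for some. The planned tests of the mt- genes and of their ratio to nuclear genes were not run, since all counts were 0. No sequence or coordinate was used.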

Additional observations from a re-analysis of the deposited data

How the results depend on the processing

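No called member changed sign in any setting. DESeq2, TMM without the members and ribosomal protein genes, and no filter each kept all 17 calls. Depth limits the 5 members under the level tested. Of the 10 lower members, 3 (atp5ib, cox7a1 and ndufab1a) were also called lower with the authors' totals and 0 with either TATA/TATA library left out, and the cause of the dependence on scaling was not tested. The alternatives for the mt- genes were not run because every count was 0.

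Members called higher numbered 21 when scaled by the authors' totals, 26 and 27 with limma on log2(RPKM + 0.1) and log2(RPKM + 1), and 1 to 8 with a library left out, and members called lower numbered 3, 3, 4 and 0 to 22 in the same settings. The median log2 fold change of the members was 0.44, 0.46 and 0.45 with the authors' totals and the 2 limma fits, and -0.14 to 0.07 with a library left out. As shares of all tested genes, 29.7% were higher and 6.44% lower with the authors' totals. With limma they were 31.9% and 6.72% (+ 0.1) and 34% and 6.98% (+ 1). DESeq2 gave 22.9% and 20.1%, and no filter 15% and 10.4%. A mean of at least 5 RPKM gave 14.1% and 15.6%, of 6173 genes tested. With an lmo1-/- library left out the shares were 18.2% to 24.9% and 14.7% to 23%. Over all tested genes, 4308 and 4581 were higher with the 2 limma fits, 868 with a mean of at least 5 RPKM and 1405 to 3355 with a library left out, and 869, 906, 941, 960 and 446 to 3101 were lower with the authors' totals, the 2 limma fits, a mean of at least 5 RPKM and a library left out. Of the listed pathway genes (5 higher and 26 lower of 212), 12 were higher with DESeq2, 33 with the authors' totals, 46 and 50 with limma, 3 without a filter and 2 to 10 with a library left out, and 4 were lower with the authors' totals and with each limma fit and 0 to 65 with a library left out.

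Among the 37 named and tested members, 14 that were not called changed sign in some setting. With the authors' totals, limma (+ 0.1) and limma (+ 1), the log2 fold changes were 0.35, 0.36 and 0.36 for cox4i1, 0.25, 0.26 and 0.26 for cox5aa, 0.013, 0.038 and 0.038 for ndufa4l, 0.30, 0.32 and 0.31 for ndufa5, 0.35, 0.36 and 0.35 for ndufab1b, 0.20, 0.22 and 0.22 for ndufb9, 0.33, 0.36 and 0.36 for sdhc, and 0.069, 0.091 and 0.090 for uqcrh. For atp5b it was -0.012 without a filter, -0.061 with the replicate block and -0.0088 with TMM from the nuclear members alone, a setting chosen after seeing the data. With a library left out, it ranged from -0.019 to 0.094 for atp5b, -0.23 to 0.011 for cox4i1, -0.046 to 0.30 for cox6a1, -0.32 to 0.0086 for ndufa5, -0.21 to 0.0057 for ndufab1b, -0.32 to 0.0021 for sdhc, -0.034 to 0.21 for sdhdb, -0.024 to 0.31 for uqcr10, -0.067 to 0.20 for uqcrc1 and -0.021 to 0.21 for uqcrc2b.

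Replicate numbers did not pair the libraries, as the deviations of same-numbered libraries correlated at 0.02 and -0.01. With the replicate number as a block, 6 members were higher and 11 lower, and 16 of the 17 calls were kept, with ndufv1 lost (adjusted p = 0.081, edgeR).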
